A study of Rattus norvegicus with 10 samples.

Results

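Potassium channel genes were read here as the protein-coding entries of the deposited expression table whose symbol begins with *Kcn*, followed by a letter and a number. The rule took 92 of the 32545 genes in the table, under 91 symbols, since *Kcnk6* is listed under 2 identifiers. Expression of these genes was compared between male and female PCK rats, a strain (PCK/CrljCrl-Pkhd1pck/Crl) in which a spontaneous mutation of *Pkhd1* gives a model of autosomal recessive polycystic kidney disease (ARPKD). Each of the 5 males and 5 females gave 1 library. Both groups carry the mutation, no treatment is named, and no rat without the mutation was sequenced. The methods give an age of 10 to 12 weeks and the text of the series 12 to 14 weeks. The sample labels call the tissue kidney, and the methods describe renal cortex. According to the methods the rats came from 2 litters of different parents. The litter of each rat was not used here, so the spread within and between litters cannot be told apart.

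Potassium channels are pores that let K+ move down its electrochemical gradient across a membrane. In the nephron they recycle K+ at the basolateral side of tubule cells, hold the membrane potential that drives sodium reabsorption, and secrete K+ into the urine from the thick ascending limb and the collecting duct. The *Kcn* symbols cover the pore-forming subunits, namely inward rectifiers (*Kcnj*), two-pore channels (*Kcnk*), voltage-gated channels (*Kcna* to *Kcnd*, *Kcnh* and *Kcnq*) and channels gated by calcium or sodium (*Kcnma*, *Kcnn* and *Kcnt*). They also cover electrically silent subunits that join voltage-gated pores (*Kcnf*, *Kcng*, *Kcns* and *Kcnv*) and the accessory subunits that bind some channels (*Kcne*, *Kcnab*, *Kcnip* and *Kcnmb*).

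Expression was given in FPKM, the number of fragments scaled by gene length and library size, which allows levels of different genes to be set side by side. Each FPKM could be turned back into a whole number of reads, and the 10 libraries held 13912569 to 20285911 reads on genes. *Kcn* genes took 0.104% to 0.176% of these reads, and 68 to 80 of the 92 had a read in a given library. Markers of proximal tubule were abundant. Over 6 genes they summed to 1248 to 2529 FPKM in males and 1343 to 2686 in females. Of 4 markers of the distal convoluted tubule, *Pvalb* had no read and 3 were tested. Those of the distal convoluted tubule summed to 88.8 to 159 FPKM in males and 134 to 199 in females. Female 2 had the highest share of mitochondrial reads (26.8%). Male 5 had the lowest summed proximal markers of the males (1248 FPKM) and female 2 the lowest of the females (1343 FPKM). In whole-tissue RNA, fewer cells of a type and less RNA per cell cannot be told apart, and this holds for every difference between the sexes given here.

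Values were taken as log2(FPKM + 0.1) and compared with limma in the 17631 genes that averaged at least 0.1 FPKM, and p-values were adjusted over all of these by the Benjamini-Hochberg method. A gene was called at an adjusted p of at most 0.05. Fold changes are of females over males with their standard error (SE), and single genes also have a two-sided exact permutation test on mean FPKM. That test cannot give a p below 0.00794 with 5 rats in each sex. Means carry the SD of the 5 rats. Nothing in the labels ties a rat to a batch.

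Of the 92 *Kcn* genes, 59 were tested and 33 were too low for the test. *Kcnj1* was the 1 *Kcn* gene called by limma, which is 1.69% of those tested, against 2.4% of all tested genes. Without female 2 *Kcnj16* was called too, and without male 1 *Kcne1*. With a fold change of at least 2 as a further condition, 0 *Kcn* genes were called by limma, against 1.32% of all tested genes, while 14 had an unadjusted p under 0.05. Of those 14, 11 were higher in females, or 18.6% of the tested *Kcn* genes, where 7.67% of all tested genes were higher at the same limit. The other 3 were lower in females, or 5.08% of the tested *Kcn* genes, where 8.07% of all tested genes were lower. The 11 became 7 without male 2. The 3 became 1 without female 1, female 4, male 1 or male 2, and 5 without female 2. FPKM ranges of the sexes did not overlap for *Kcnj1* and *Kcnk13*, which is 3.39% of the tested *Kcn* genes against 5.1% of all tested genes. Over the 59 genes the median log2 fold change was −0.02, beside −0.01 over all tested genes, with 28 positive and 31 negative values between −0.93 (*Kcne4*) and 0.67 (*Kcnj10*). Among the 27 genes averaging 1 FPKM or more, 16 had a positive value and 11 a negative one, and among the 32 below that level these were 12 and 20.

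**Figure D1:**
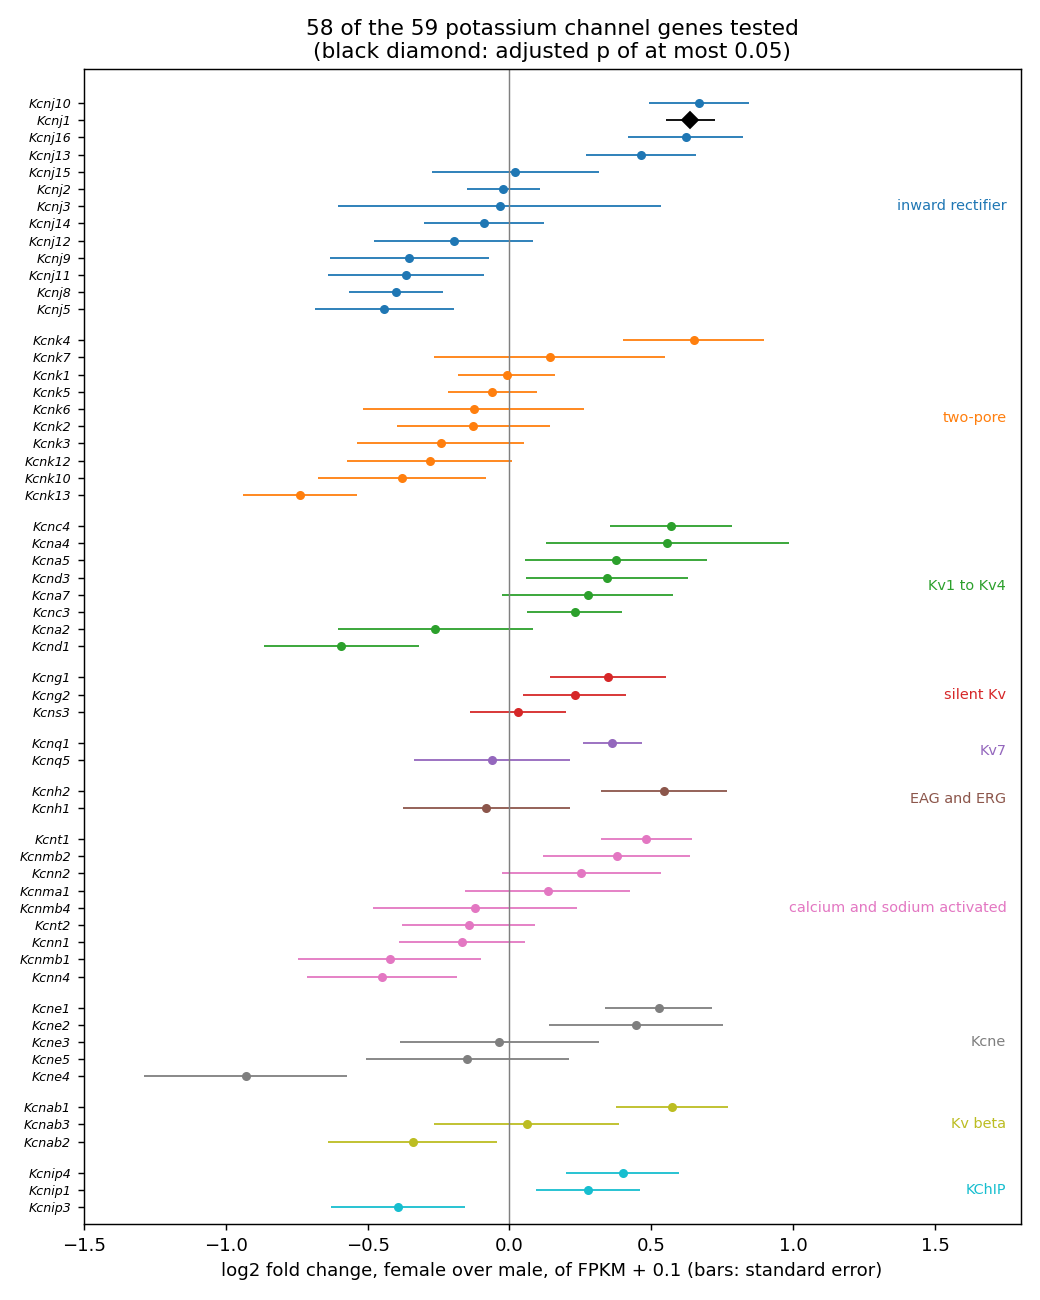
Log2 fold change of FPKM + 0.1, female over male, for 58 of the 59 potassium channel genes tested, grouped by family, with bars of 1 standard error. *Kcnj1* is the black diamond and the 1 gene with an adjusted p of at most 0.05, and the other values lie between −0.93 and 0.67.

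The 3 inward rectifiers *Kcnj16*, *Kcnj15* and *Kcnj1* were the only *Kcn* genes with a mean above 100 FPKM. *Kcnj16* was the highest *Kcn* gene in 10 of 10 libraries. *Kcnj15* stood above *Kcnj1* in 4 of 5 males and 3 of 5 females, so the order of these genes was not the same in every rat. Together they made up 69.0% to 78.1% of the summed *Kcn* FPKM in males and 75.5% to 82.9% in females. The sum over all *Kcn* genes was 619, 690, 721, 703 and 471 FPKM in the males and 817, 670, 834, 1025 and 833 FPKM in the females. Female 2 lay within the males in this sum, and male 5 was the lowest of all rats. Without the 3 genes the sum was 146 to 167 FPKM in males and 164 to 175 in females. Inward rectifiers as a family gave 85.2% of all *Kcn* FPKM, two-pore channels 5.67% and the *Kcne* subunits 2.11%.

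**Figure D2:**
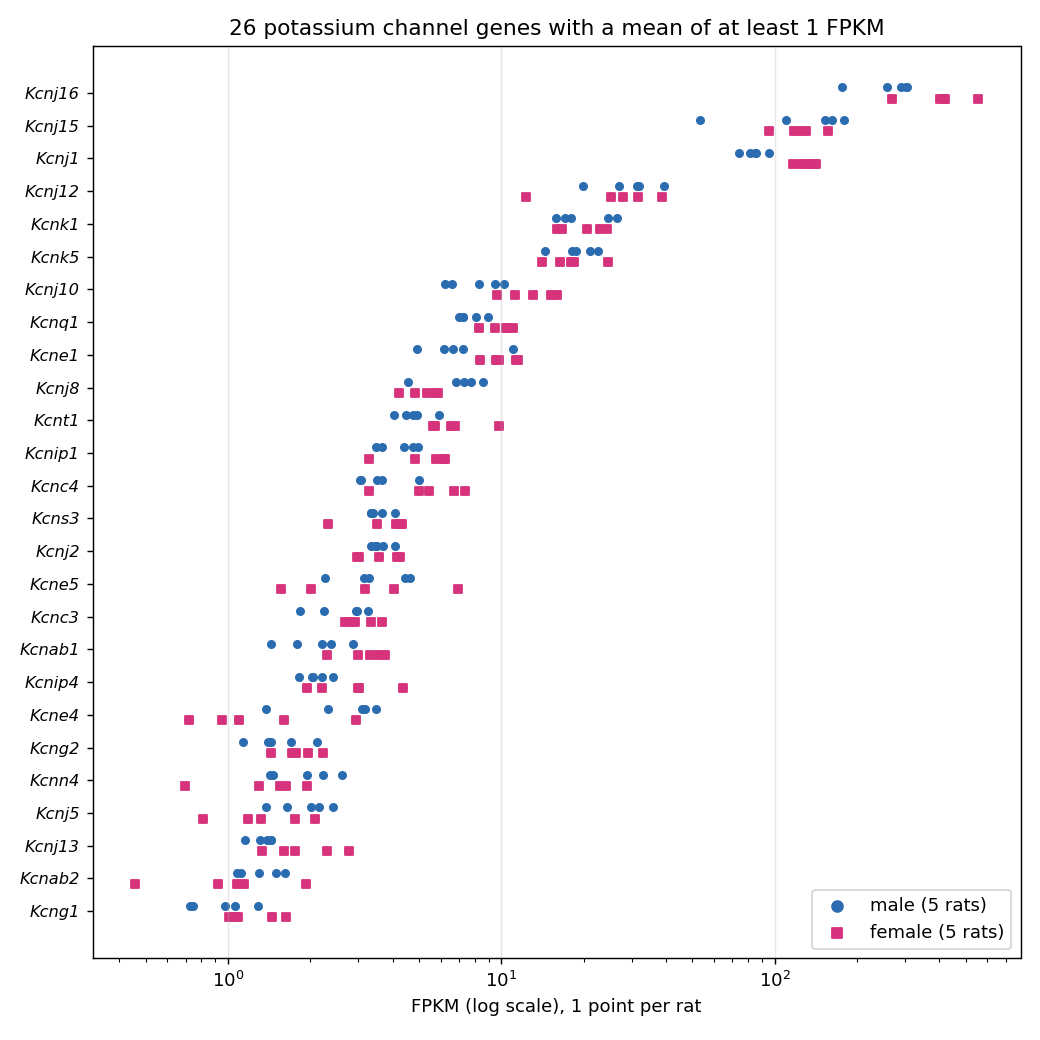
FPKM on a log scale of 26 of the 27 potassium channel genes averaging 1 FPKM or more, ordered by mean, with 1 point per rat (circles, males; squares, females). *Kcnj16*, *Kcnj15* and *Kcnj1* lie apart at the top, and the points of the sexes are separate for *Kcnj1* alone.

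Sequence just before the annotated start of transcription is given for the 3 inward rectifiers with the largest positive fold changes among genes above 10 FPKM, because *Kcnj1* is the called gene and *Kcnj16* and *Kcnj10* encode partners in a single channel. The sequences are the RefSeq annotation's, on the build GRCr8, and each holds the 250 bases before the start, 5′ to 3′. RefSeq gives *Kcnj1* a pair of starts, and which of them the reads came from was not tested.
*Kcnj1* first start (chr8:39037742-39037991, plus strand): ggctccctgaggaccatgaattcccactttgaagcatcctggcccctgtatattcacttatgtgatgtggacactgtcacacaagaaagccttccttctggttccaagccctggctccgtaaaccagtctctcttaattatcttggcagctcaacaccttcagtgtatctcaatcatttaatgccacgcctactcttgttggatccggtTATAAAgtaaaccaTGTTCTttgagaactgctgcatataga
*Kcnj1* second start (chr8:39061391-39061640, plus strand): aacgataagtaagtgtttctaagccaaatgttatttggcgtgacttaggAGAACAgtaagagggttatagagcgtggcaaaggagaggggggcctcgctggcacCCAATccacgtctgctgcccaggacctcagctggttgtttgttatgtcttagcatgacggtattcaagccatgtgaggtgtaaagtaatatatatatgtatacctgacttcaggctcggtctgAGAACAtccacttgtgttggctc
*Kcnj16* (chr10:96517074-96517323, plus strand): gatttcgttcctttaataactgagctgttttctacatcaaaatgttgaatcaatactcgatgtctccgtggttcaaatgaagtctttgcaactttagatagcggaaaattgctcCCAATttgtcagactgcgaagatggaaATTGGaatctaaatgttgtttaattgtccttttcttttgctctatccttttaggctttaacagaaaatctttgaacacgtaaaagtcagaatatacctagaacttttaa
*Kcnj10* (chr13:87334260-87334509, plus strand): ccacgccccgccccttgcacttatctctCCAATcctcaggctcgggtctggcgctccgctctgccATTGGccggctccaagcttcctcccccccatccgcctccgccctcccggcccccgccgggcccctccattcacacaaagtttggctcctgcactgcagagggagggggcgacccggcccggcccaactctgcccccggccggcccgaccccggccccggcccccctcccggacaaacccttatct
Capitals mark matches on either strand to 4 motifs searched by their letters. These were the TATA box TATAAA, the half-site AGAACA that androgen, glucocorticoid and mineralocorticoid receptors share, the nuclear receptor half-site AGGTCA and the box CCAAT. No 2 of the matches shown overlap. The first start of *Kcnj1* had TATAAA beginning 41 bases before the start and AGAACA, on the other strand, beginning 27 bases before it. The second start had AGAACA beginning 201 and 23 bases before the start, and CCAAT 146 bases before it. *Kcnj16* and *Kcnj10* each had CCAAT once on each strand and none of the other motifs. AGAACA was in 17.5% of the 33469 windows of this length in the RefSeq table and in 16.4% of the 67 windows matched to *Kcn* symbols, which belong to 61 symbols. The other shares were 12.9% of all and 2.99% of *Kcn* windows for TATAAA, 14.1% and 5.97% for AGGTCA, and 34.0% and 25.4% for CCAAT. A match of so few letters is a description of the sequence and not a binding site. The windows differed in base composition, with 33.6% G or C in that of *Kcnj16*, 45.2% and 46.8% in those of *Kcnj1* and 72.4% in that of *Kcnj10*.

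Apical K+ secretion was examined through ROMK and the BK channel. *Kcnj1* (ENSRNOG00000059005; Rnor_6.0 chromosome 8, 33514042 to 33518165) encodes ROMK, the channel that returns K+ to the lumen of the thick ascending limb and secretes it from principal cells. It was at 85.1, 81.5, 74.0, 84.3 and 94.9 FPKM in males and at 117, 142, 130, 138 and 126 FPKM in females. Every female was above every male. *Kcnj1* rose in females by a log2 fold change of 0.64 (SE 0.09, limma adjusted p = 0.00263), and its adjusted p was between 0.00250 and 0.0344 under all other settings tried. From 2184 to 5004 reads per rat lay behind these values. All 6 principal cell markers had positive fold changes, with a median of 0.40 on the log2 scale, where 48.8% of all tested genes were positive. At an unadjusted p under 0.05, 2 were higher in females, as 7.67% of all tested genes were. Of these 2, 1 was called (*Avpr2*, limma adjusted p = 0.0469), beside 2.4% of all tested genes. The summed markers were at 295 to 476 FPKM in males and 341 to 537 in females. For the thick ascending limb, 4 of 5 markers had positive fold changes, with a median over the 5 of 0.15, and 2 had an unadjusted p under 0.05. The 1 marker called was the remaining one, *Ptger3*, which was lower in females (limma adjusted p = 0.0435). Sums were 1120 to 1631 FPKM in males and 1157 to 1818 in females. The calls of *Avpr2* and *Ptger3* were lost under 12 and 11 of 20 other settings. With single rats left out, that of *Avpr2* was kept only without female 2 or male 1, and that of *Ptger3* only without female 1 or female 2. None of the markers of these segments was at 0, and their part in the difference of *Kcnj1* was not tested.

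*Kcnma1*, the pore of the calcium-activated BK channel, was low in this tissue. It was at 0.968, 0.634, 0.716, 0.440 and 0.590 FPKM in males and at 0.853, 1.29, 0.786, 0.416 and 0.529 FPKM in females, from 35 to 86 reads. The sexes overlapped throughout, with a log2 fold change of 0.13 (SE 0.29) that turned to −0.05 without female 2. Of its beta subunits, *Kcnmb4* averaged 0.536 ± 0.205 FPKM in males and 0.516 ± 0.243 FPKM in females, and *Kcnmb2* averaged 0.181 ± 0.0454 and 0.266 ± 0.0713 FPKM. *Kcnmb1* was at 0.593 ± 0.165 and 0.449 ± 0.246 FPKM, but it lies inside *Kcnip1* on the other strand and its reads are uncertain. *Kcnmb3* had at most 2 reads in a library. The BK gamma subunit gene *Lrrc26*, which is outside the rule, had no read.

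The ratio of *Kcnj1* to *Kcnma1* was 135 ± 42.3 in males and 196 ± 89.3 in females, a difference within the rats' spread (exact permutation test, two-sided, p = 0.198, adjusted over 4 ratios 0.265). Relative to *Slc12a1*, the Na-K-2Cl cotransporter of the thick ascending limb that needs ROMK to supply luminal K+, *Kcnj1* was at 0.768, 0.761, 0.669, 0.664 and 0.617 in males and at 0.646, 0.936, 1.11, 0.885 and 0.738 in females. Female 1 fell among the males and female 5 lay below 2 of them. The mean ratio was 0.696 ± 0.0659 in males and 0.862 ± 0.179 in females (exact permutation test, two-sided, p = 0.103, adjusted over 4 ratios 0.265).

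The basolateral K+ channel of the distal nephron is a tetramer of Kir4.1, encoded by *Kcnj10*, and Kir5.1, encoded by *Kcnj16*. *Kcnj16* (Rnor_6.0 chromosome 10, 99388130 to 99389898) was at 258, 305, 303, 290 and 177 FPKM in males and at 419, 269, 402, 556 and 418 FPKM in females. Female 2 lay within the males, and the other 4 females were above every male. The log2 fold change was 0.62 (SE 0.20, limma adjusted p = 0.157, exact permutation p = 0.0317). It was called only without female 2, with a log2 fold change of 0.77 and a limma adjusted p of 0.0468.

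*Kcnj10* (Rnor_6.0 chromosome 13, 90723092 to 90752581) was at 9.44, 6.22, 8.31, 10.2 and 6.58 FPKM in males and at 9.61, 13.0, 15.2, 15.9 and 11.2 FPKM in females. Female 1 was below male 4, and the other 4 females were above every male. The log2 fold change of 0.67 (SE 0.18) did not pass the test (limma adjusted p = 0.0840, and 0.0516 to 0.169 under the other settings).

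The ratio of *Kcnj16* to *Kcnj10* was 27.4, 49.0, 36.4, 28.4 and 26.8 in males and 43.6, 20.7, 26.4, 34.9 and 37.2 in females. The sexes covered much the same range, at 33.6 ± 9.44 and 32.5 ± 9.05 (exact permutation test, two-sided, p = 0.810, also after adjustment over 4 ratios). *Kcnj10* relative to *Slc12a3*, the thiazide-sensitive Na-Cl cotransporter of the distal convoluted tubule, was 0.0768 ± 0.0161 in males and 0.0871 ± 0.00604 in females (exact permutation test, two-sided, p = 0.167, adjusted over 4 ratios 0.265). Male 4, at 0.104, had the highest value of this ratio. Without male 4, which was singled out by this same value, every female was above every male. The adjusted exact permutation p of 0.0317 without male 4 therefore describes these rats and is no test. Of the 3 tested markers of the distal convoluted tubule, 0 were called by limma and 2 had an unadjusted p under 0.05. Their summed level was 88.8 to 159 FPKM in males and 134 to 199 in females, and their part in the values of *Kcnj10* and *Kcnj16* was not tested.

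**Figure D3:**
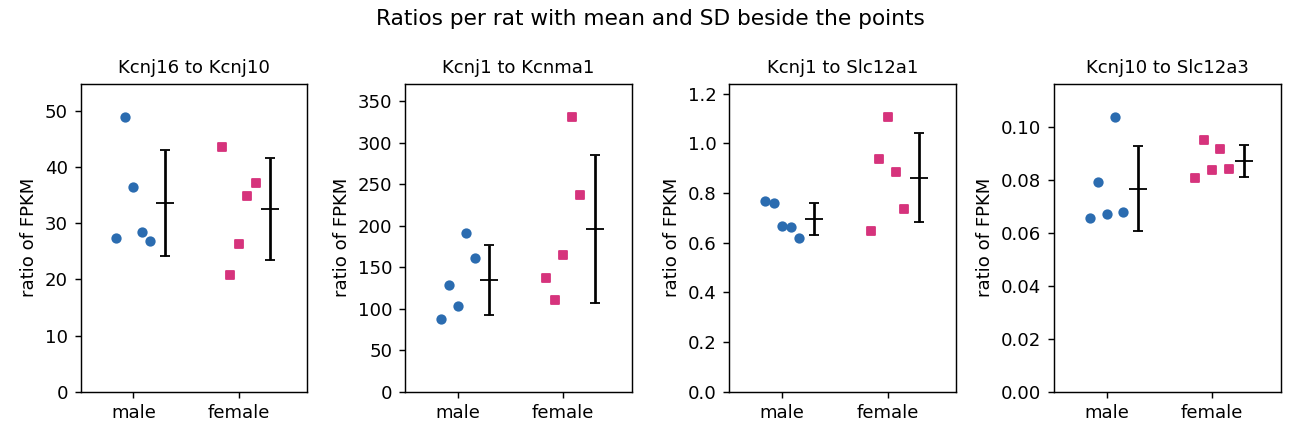
Ratios of FPKM per rat for 4 pairs of genes, with the mean and SD beside the points of each sex (5 rats each). The sexes overlap in all 4 panels, and the ratio of *Kcnj16* to *Kcnj10* has nearly the same mean in males (33.6) and females (32.5).

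*Kcnj15* encodes Kir4.2, which joins Kir5.1 in basolateral channels of the proximal tubule. It was at 110, 153, 180, 161 and 53.4 FPKM in males and at 117, 95.2, 130, 156 and 124 FPKM in females. Male 5 was far below the other males, and the sexes overlapped. The mean was 131 ± 50.7 FPKM in males and 124 ± 22.1 FPKM in females, whereas the log2 fold change was 0.02 (SE 0.29), and it was −0.27 without male 5. *Kcnj12*, an inward rectifier of the Kir2 group, was at 26.9, 31.9, 39.3, 31.4 and 20.0 FPKM in males and at 25.3, 12.3, 31.6, 38.8 and 28.0 FPKM in females. Its log2 fold change was −0.20 (SE 0.28), with a value of 0.06 without female 2, the lowest rat.

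Male 5 and female 2, the rats with the lowest proximal tubule markers of their sex, were also the lowest of their sex in 6 genes, among them *Kcnj15*, *Kcnj12*, *Kcnj16*, *Kcnk5* and *Kcnj3*. The 6 are 10.2% of the tested *Kcn* genes, close to the 9.61% of all tested genes that showed the same order. *Kcnj1*, *Kcnj5*, *Kcnab2*, *Kcnip4*, *Kcnk2* and *Kcnmb4* were instead highest of their sex in these rats, again 10.2% of the tested *Kcn* genes, against 8.97% of all. Since the rats were singled out after their values were seen, the counts are descriptions with no test.

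**Figure D4:**
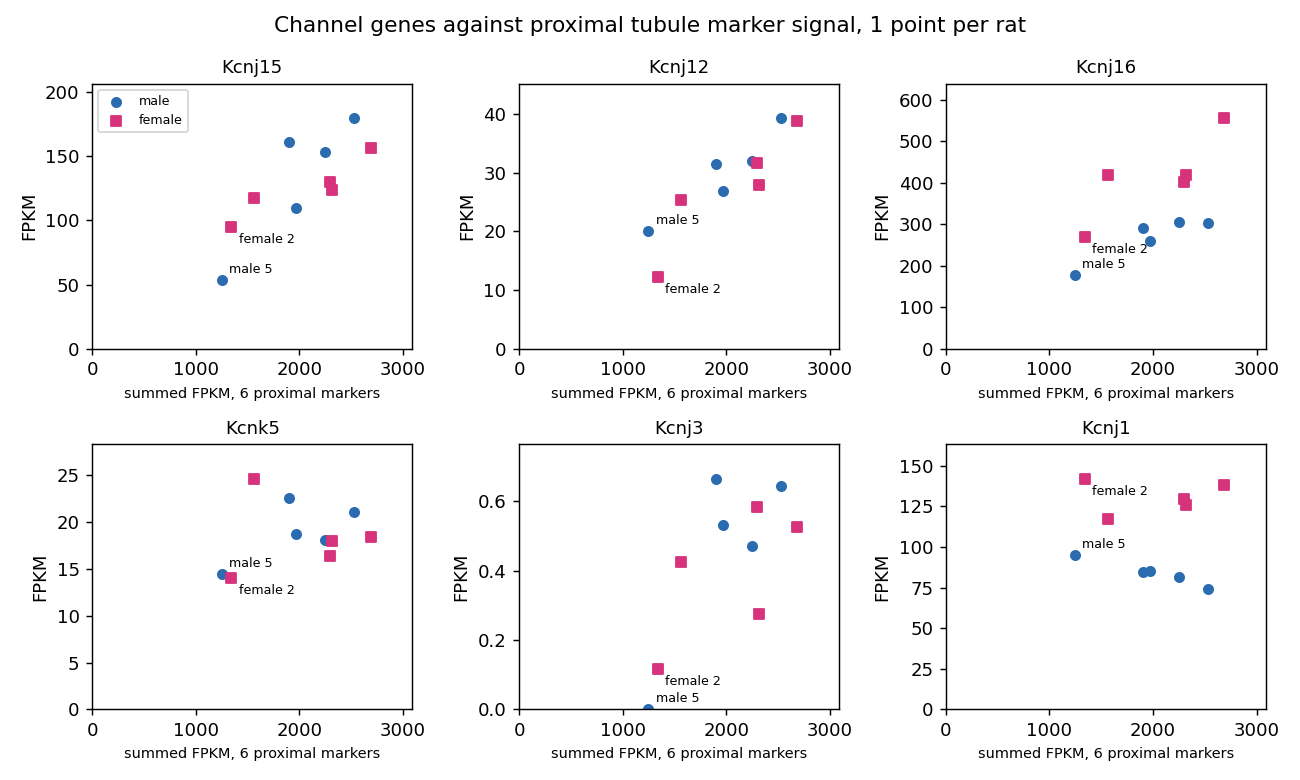
FPKM of 6 potassium channel genes against the summed FPKM of 6 proximal tubule markers, with 1 point per rat (circles, males; squares, females). Male 5 and female 2, with marker sums of 1248 and 1343 FPKM, have the lowest value of their sex in 5 panels and the highest in the *Kcnj1* panel.

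The remaining inward rectifiers were lower. *Kcnj8* encodes Kir6.1, the pore of ATP-sensitive channels in vessels. It was at 8.54, 7.77, 6.81, 4.55 and 7.32 FPKM in males and at 4.84, 5.76, 5.86, 4.21 and 5.35 FPKM in females. Male 4 lay among the females, and the log2 fold change of −0.40 (SE 0.17) did not pass the test (limma adjusted p = 0.266). *Abcc9*, its sulfonylurea receptor partner SUR2, had a log2 fold change of −0.43 (SE 0.17, limma adjusted p = 0.236). Of the 5 endothelial and 6 smooth muscle entries (*Smtn* has 2 identifiers), 0 were called by limma and 0 had an unadjusted p under 0.05. Their sums were 79.3 to 101 and 78.4 to 129 FPKM for endothelium, and 141 to 180 and 63.7 to 227 FPKM for smooth muscle, in males and females.

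*Kcnj11*, the Kir6.2 pore of the ATP-sensitive channel of pancreatic beta cells, averaged 0.175 ± 0.0490 FPKM in males and 0.113 ± 0.0359 FPKM in females, from 4 to 15 reads. Its partner *Abcc8*, the sulfonylurea receptor SUR1, is outside the rule. It averaged 0.332 ± 0.0687 FPKM in males and fell to 0.0537 ± 0.0175 in females, a log2 fold change of −1.48 (SE 0.26, limma adjusted p = 0.0117), with 19 to 42 reads in males and 2 to 6 in females. *Kcnj2*, a strong inward rectifier, was at 3.61 ± 0.288 and 3.59 ± 0.613 FPKM (log2 fold change −0.02, SE 0.13, and 0.06 after quantile normalization). *Kcnj13*, the Kir7.1 channel, averaged 1.35 ± 0.117 FPKM in males and 1.95 ± 0.580 FPKM in females. It lies within *Gigyf2* on the other strand, which was at 11.4 FPKM, and its reads are uncertain because the strand setting of the counting is not known. *Kcnj5* was at 1.92 ± 0.417 and 1.43 ± 0.498 FPKM, and *Kcnj9* and *Kcnj14* had means under 1 FPKM with log2 fold changes of −0.35 (SE 0.28) and −0.09 (SE 0.21). *Kcnj3*, also under 1 FPKM, rested on 0 to 25 reads, with none in male 5, and its log2 fold change of −0.04 (SE 0.57) changed sign with the pseudocount and with single rats left out.

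Several inward rectifiers sit next to each other in the genome. *Kcnj5* lies 50.6 kb from *Kcnj1*, *Kcnj2* lies 47.5 kb from *Kcnj16*, and *Kcnj9* lies 12.8 kb from *Kcnj10* on Rnor_6.0. The neighbours had log2 fold changes of −0.44 (SE 0.25), −0.02 (SE 0.13) and −0.35 (SE 0.28), and none of them was called. Beside them, *Kcnj1*, *Kcnj16* and *Kcnj10* were at 0.64, 0.62 and 0.67. In all, 5 pairs of tested *Kcn* genes were within 200 kb of each other or overlapped, and 4 of them had fold changes of opposite sign. Of these 4, *Kcnj16* and *Kcnj2* had the same sign with quantile normalization and with some single rats left out, and *Kcnip1* overlaps *Kcnmb1*, whose reads are uncertain. The pair with the same sign was *Kcne1* and *Kcne2*, 51.0 kb apart. How often neighbouring pairs of all genes differ in sign was not counted.

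Two-pore channels give a background K+ conductance. *Kcnk1* (TWIK-1) averaged 20.4 ± 4.81 FPKM in males and 20.1 ± 3.69 FPKM in females. Its log2 fold change was −0.01 (SE 0.17) and changed sign without female 3, female 4, male 4 or male 5. *Kcnk5* (TASK-2), a basolateral channel of the proximal tubule that opens in alkaline conditions, was at 19.0 ± 3.12 and 18.3 ± 3.92 FPKM (log2 fold change −0.06, SE 0.16). In both genes the difference between the sexes was smaller than its SE.

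*Kcnk13* (Rnor_6.0 chromosome 6, 123974798 to 124077197) encodes the channel THIK-1. It was at 1.21, 0.795, 1.20, 0.693 and 1.08 FPKM in males and at 0.499, 0.664, 0.496, 0.584 and 0.495 FPKM in females, from 16 to 38 reads per rat. Every female was below every male, by a margin of 0.693 against 0.664 FPKM. The log2 fold change was −0.74 (SE 0.20, exact permutation p = 0.00794), and the limma adjusted p was 0.0909, or 0.0502 to 0.224 under the other settings. The gene was therefore not called. Of the 5 macrophage markers, 0 were called by limma. At an unadjusted p under 0.05, 2 were lower in females, as 8.07% of all tested genes were. All 5 had a negative fold change, where 48.8% of all tested genes had a positive one. The macrophage markers summed to 118 to 229 FPKM in males and 56.7 to 138 in females. Their part in the values of *Kcnk13* was not tested.

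Of the other two-pore channels, *Kcnk2* (TREK-1), *Kcnk3* (TASK-1) and *Kcnk4* (TRAAK) were each below 1 FPKM. *Kcnk4*, which was named after its values were seen, averaged 0.329 ± 0.109 FPKM in males and 0.568 ± 0.134 FPKM in females from 4 to 15 reads (log2 fold change 0.65, SE 0.25, limma adjusted p = 0.230). *Kcnk2* and *Kcnk3* had log2 fold changes of −0.13 (SE 0.27) and −0.24 (SE 0.29). *Kcnk6* rested on 1 to 5 reads per rat under the identifier that was tested and on at most 1 under the other, so it is uncertain.

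**Figure D5:**
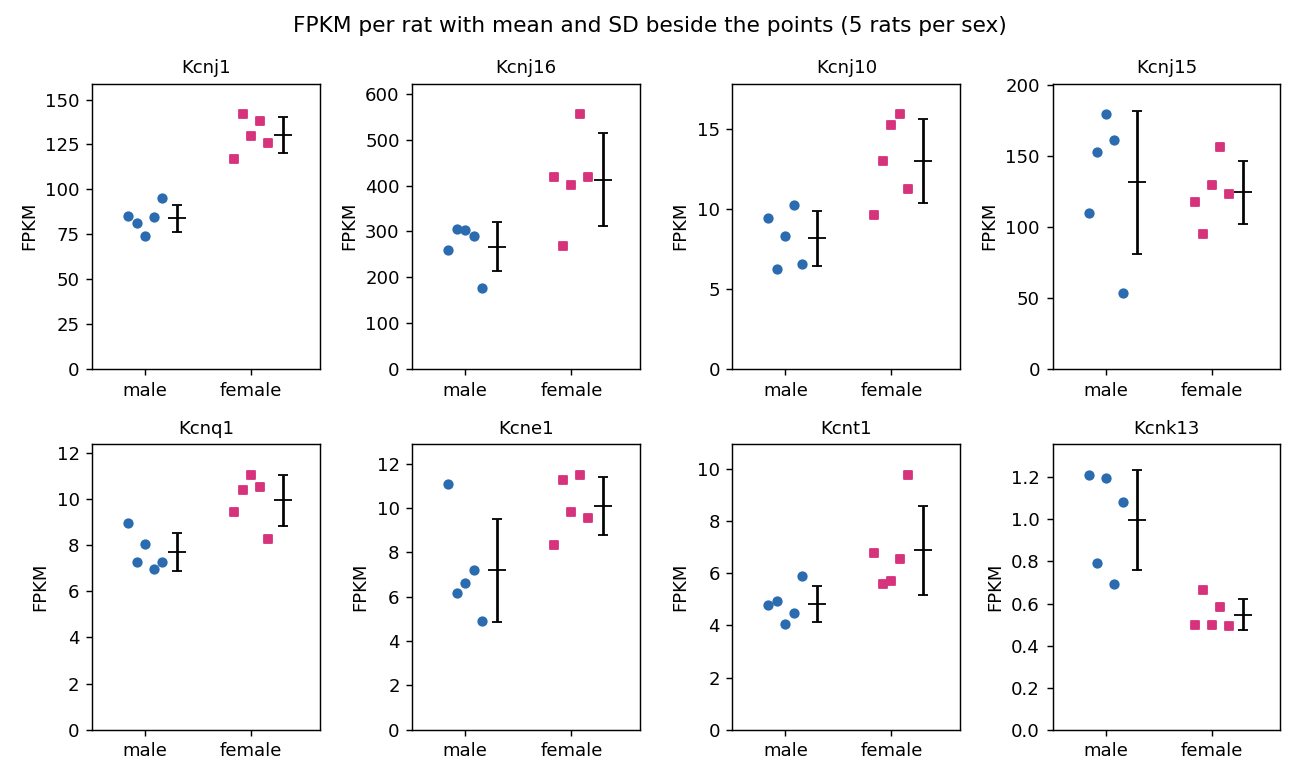
FPKM of 8 potassium channel genes in each rat, with the mean and SD beside the points (5 rats per sex; axes start at 0). The sexes are separate for *Kcnj1*, where females lie above males, and for *Kcnk13*, where they lie below, and overlap in the other 6 panels.

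*Kcnq1* and *Kcne1* form a slowly activating voltage-gated channel that, in the kidney, is known from the apical membrane of the proximal tubule. *Kcnq1* was at 8.95, 7.26, 8.06, 6.98 and 7.25 FPKM in males and at 9.45, 10.4, 11.0, 10.5 and 8.27 FPKM in females. Female 5 lay below male 1, and the other 4 females were above every male. The log2 fold change was 0.36 (SE 0.10, limma adjusted p = 0.110, exact permutation p = 0.0159).

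*Kcne1* was at 11.1, 6.16, 6.64, 7.22 and 4.91 FPKM in males and at 8.35, 11.3, 9.83, 11.5 and 9.56 FPKM in females. Male 1 was close to the highest females, and the other 4 males were below every female. The log2 fold change of 0.53 (SE 0.19, limma adjusted p = 0.197) was called only without male 1, at 0.69 with a limma adjusted p of 0.0343. Its reads numbered 43 to 119.

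The other *Kcne* subunits, which also bind *Kcnq1* and other voltage-gated pores, went in no common direction. *Kcne4*, named after its values were seen, had the most negative log2 fold change of the *Kcn* genes, at −0.93 (SE 0.36, limma adjusted p = 0.231), with 3.09, 3.17, 2.32, 3.47 and 1.38 FPKM in males and 0.948, 2.94, 1.60, 0.719 and 1.10 FPKM in females, from 8 to 45 reads. Male 5 lay among the females and female 2 among the males. *Kcne2* was at 0.323 ± 0.121 and 0.482 ± 0.187 FPKM, and *Kcne3* at 0.918 ± 0.344 and 0.915 ± 0.381 FPKM. *Kcne5*, an X-linked gene, spread from 1.56 to 6.92 FPKM in females alone. Of the other *Kcnq* genes, *Kcnq5* was tested, at 0.143 ± 0.0427 and 0.132 ± 0.0329 FPKM.

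Among the classical voltage-gated channels, *Kcnc4* (Kv3.4) averaged 3.65 ± 0.790 FPKM in males and 5.57 ± 1.60 FPKM in females (log2 fold change 0.57, SE 0.21, limma adjusted p = 0.224). *Kcns3*, an electrically silent subunit that modifies other voltage-gated pores, was at 3.56 ± 0.321 and 3.71 ± 0.844 FPKM (log2 fold change 0.03, SE 0.17), and its sign turned with scaling by total reads. *Kcnh2*, the ERG channel of cardiac repolarization, averaged 0.372 ± 0.102 FPKM in males and 0.584 ± 0.103 FPKM in females from 20 to 46 reads (log2 fold change 0.55, SE 0.22, limma adjusted p = 0.257). *Kcna1* (Kv1.1), known for a role in magnesium handling of the distal convoluted tubule, had at most 2 reads in a library, and *Kcna10* had none. No gene taken by the rule had the symbol *Kcna3*, so it was not analysed here.

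Of the accessory subunits of voltage-gated channels, *Kcnab1*, a Kv beta subunit, averaged 2.14 ± 0.555 FPKM in males and 3.19 ± 0.572 FPKM in females (log2 fold change 0.57, SE 0.20, limma adjusted p = 0.179). *Kcnip1*, a calcium-binding partner of Kv4 channels, was at 4.25 ± 0.656 and 5.25 ± 1.23 FPKM (log2 fold change 0.28, SE 0.18). The Kv4 pores themselves were low, with *Kcnd1* at 0.576 ± 0.134 and 0.360 ± 0.148 FPKM and *Kcnd3* at 0.160 ± 0.0371 and 0.237 ± 0.0920 FPKM.

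*Kcnt1*, the sodium-activated channel Slack, was the highest gene of the calcium- and sodium-activated group. It was at 4.77, 4.93, 4.05, 4.50 and 5.91 FPKM in males and at 6.77, 5.60, 5.70, 6.56 and 9.78 FPKM in females. Male 5 lay above 2 of the females, and female 5 stood apart above the rest. The log2 fold change was 0.48 (SE 0.16, limma adjusted p = 0.160, exact permutation p = 0.0238). *Kcnn4*, an intermediate-conductance calcium-activated channel, averaged 1.94 ± 0.504 FPKM in males and 1.42 ± 0.468 FPKM in females (log2 fold change −0.45, SE 0.26, limma adjusted p = 0.456). *Kcnn3* fell short of the filter, at 0.139 ± 0.0696 and 0.0487 ± 0.0273 FPKM.

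Of the 33 *Kcn* genes that were not tested, 28 had a read in at least 1 library, and 20 of the 33 had no more than 3 reads in any library. *Kcna10*, *Kcnj6*, *Kcnk9*, *Kcnk18* and *Kcns2* had no read in any of the 10 libraries. A count of 0 allows 3 reads, which for *Kcnk18* amounts to a level of up to 0.160 FPKM in the shallowest case and for *Kcnj6* to 0.0686 FPKM. These limits cover counting error only.

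Genes that work with the channels were counted by list. *Slc12a1*, *Slc12a3*, *Scnn1g*, *Fxyd4*, *Klhl3* and *Hsd11b2* are also among the markers of nephron segments, so these lists are not independent of the markers. Among 5 genes of distal sodium entry, namely the 3 ENaC subunits and the cotransporters *Slc12a1* and *Slc12a3*, 0 were called by limma and 4 had an unadjusted p under 0.05, all higher in females, as 7.67% of all tested genes were. All 5 had positive fold changes, beside 48.8% of all tested genes, and their summed level was 236 to 339 FPKM in males and 371 to 411 in females. Of 5 tested genes of the Na,K-ATPase and H,K-ATPase, the pumps that bring K+ into the cell, 0 were called and 1 (*Atp12a*) had an unadjusted p under 0.05 by limma. The pump genes summed to 5360 to 5880 FPKM in males and 6012 to 7674 in females.

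Of 12 regulators of K+ and sodium transport, 9 had positive fold changes, with a median over the 12 of 0.27 on the log2 scale. At an unadjusted p under 0.05 there were 5. *Wnk1*, *Wnk4*, *Stk39* and *Cav1* were higher in females at that limit, as 7.67% of all tested genes were. *Sgk1* was lower (log2 fold change −0.48, limma adjusted p = 0.284), as 8.07% of all tested genes were. The 2 that were called were higher in females, beside 2.4% of all tested genes called in either direction. *Wnk1*, a kinase that senses chloride and potassium, rose from 49.3 ± 5.47 to 72.2 ± 11.8 FPKM (log2 fold change 0.54, limma adjusted p = 0.0422). Its call was lost under 12 of 20 other settings, and with single rats left out it was kept only without female 1, female 5 or male 1. *Stk39*, the kinase SPAK that acts downstream of it on the cotransporters, rose from 9.49 ± 0.731 to 13.8 ± 1.71 FPKM (log2 fold change 0.53, limma adjusted p = 0.0179), and lost its call without male 3 (limma adjusted p = 0.0558). Of 4 tested partner subunits outside the rule, *Abcc8* was called, beside 2.4% of all tested genes, and all 4 had an unadjusted p under 0.05. *Abcc8*, *Abcc9* and *Dpp6* were lower in females at that limit, as 8.07% of all tested genes were. *Amigo1* was higher, as 7.67% of all tested genes were. *Dpp6* averaged 0.568 FPKM in males and 0.321 FPKM in females (log2 fold change −0.72, limma adjusted p = 0.243). The highest male was at 5.20 FPKM of *Amigo1* and the lowest female at 5.21, so the sexes were only just separate (log2 fold change 0.25, limma adjusted p = 0.260).

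Markers of other cells of the cortex were read in the same way. Of 6 intercalated cell markers, 1 was called (*Atp6v0d2*, limma adjusted p = 0.0351), beside 2.4% of all tested genes. At an unadjusted p under 0.05, 5 were higher in females, as 7.67% of all tested genes were. All 6 had positive fold changes with a median of 0.58, beside 48.8% of all tested genes that were positive. The sums of these markers were 173 to 260 FPKM in males and 260 to 386 in females. Of 6 proximal tubule markers 4 had positive fold changes, 1 had an unadjusted p under 0.05 and it was called higher in females (*Cubn*, limma adjusted p = 0.0467). The calls of *Atp6v0d2* and *Cubn* were lost under 11 and 13 of 20 other settings. With single rats left out, that of *Atp6v0d2* was kept only without female 1, female 2 or male 5, and that of *Cubn* only without female 2 or male 4. Of 4 podocyte, 5 lymphocyte and 4 tested nerve markers, 0 were called by limma, with 1, 0 and 2 at an unadjusted p under 0.05.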

How the data were processed

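Sex was taken from the sample labels for all 10 libraries, 5 male and 5 female, with 1 library per rat. The authors deposited FPKM per gene, with a gene length in bases, as computed by their sequencing provider after mapping with HISAT2 to Rnor_6.0. The submitters' processing notes name fastp, HISAT2 2.0.5, StringTie 1.3.3b and featureCounts 1.5.0-p3. The labels cover directional and non-directional libraries alike, and the strand setting of the counting is not given in the sources used here. The authors' own DESeq2 test was not used.

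Each deposited FPKM was divided by the value of 1 read at that gene's length, and 100% of the values came out within 0.01 of a whole number of reads in every library. From the values, the deposited FPKM were already scaled by median-ratio size factors, since that factor was 1.01 in all 10 libraries. Replicates are separate rats from 2 litters, so the spread between libraries includes that between animals. The 17631 genes that averaged at least 0.1 FPKM were tested with limma 3.58.1 in R 4.3.3 (lmFit, then eBayes with a trend, on log2(FPKM + 0.1), sex as the only term), with Benjamini-Hochberg adjustment over all of them. On this scale the fold changes of low genes are understated. Ratios per rat were compared on the log2 scale by exact permutation tests, two-sided, adjusted over 4. Python 3.11.15 with numpy 2.4.6, pandas 2.3.3, scipy 1.17.1 and matplotlib 3.10.9 was used. On simulated data of the same size, limma called 82.3% of 96 tested genes changed by 1.5 on the log2 scale, 21.9% of 96 changed by 0.65 and 5 of 17169 unchanged genes.

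The members, the lists and the rule for naming genes were chosen with earlier results of these data known. Named are genes that were called, that had a mean of at least 3 FPKM or ranges that did not overlap, the highest of each family, and known renal channels. *Kcne4*, *Kcnj3*, *Kcnj5*, *Kcnj9*, *Kcnj13*, *Kcnj14*, *Kcnk4*, *Kcnq5*, *Kcnd1*, *Kcnd3*, *Kcnab2*, *Kcnip4* and the genes without reads were named outside this rule after their values were seen. Alternatives were pseudocounts of 0.01 and 1, no filter and a filter at 1 FPKM, median-ratio scaling (which could change nothing here), quantile normalization, scaling by total reads, eBayes without trend, robust eBayes, limma-voom on the recovered reads, the replicate number as a block, linear in place of log2 ratios, and leaving out each library. Counts at an unadjusted p under 0.05, 7 *Kcn* genes named outside the rule and the list genes given with a call or a fold change were added under each alternative after the data were seen. Promoter sequence came from a RefSeq table on GRCr8, in which 61 of the 91 symbols had an entry, and its coordinates were not joined to those of Rnor_6.0. The values of 1 member and of the list of potassium-chloride cotransporters are not reported here. Beyond these promoter windows, no genome or protein sequence was used here.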

Additional observations from a re-analysis of the deposited data

Results flagged for a closer look

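In each sex, the 31 tested symbols of the naming rule and the 4 ratios were screened for a rat that stood apart from the other 4 of its sex, 70 groups in all. Of these, 4 were flagged, and chance flags about 1 in 20 groups. *Kcnt1* was at 9.78 FPKM in female 5, from 911 reads, and at 5.60 to 6.77 FPKM in the other females. *Kcnmb4* was at 0.889 FPKM in male 5, from 16 reads, and at 0.403 to 0.539 FPKM in the other males. *Kcnj11* was at 0.177 FPKM in female 1, from 9 reads, and at 0.0932 to 0.104 FPKM in the other females. *Kcnk6*, listed under 2 identifiers, was at 0.333 FPKM in female 5, from 5 reads, and at 0.0600 to 0.127 FPKM in the other females.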

How the results depend on the processing

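Median-ratio scaling could change no result, since its factor was 1.01 in all 10 libraries and the deposited FPKM already carry it, so it is left out of what follows. *Kcnj1* was called under every other alternative run, and no *Kcn* gene passed both the adjusted p and the fold change of 2 under any of them by limma. The number of *Kcn* genes called ranged from 1 to 2 with each rat left out. It was 2 without female 2 (*Kcnj1* and *Kcnj16*) and without male 1 (*Kcnj1* and *Kcne1*). The number at an unadjusted p under 0.05 and higher in females was 7 to 12 with each rat left out, the lowest without male 2, beside 11 with all rats. The number lower in females was 1 to 5, beside 3, and 5 for eBayes without trend. It was 1 without female 1, female 4, male 1 or male 2, and 5 without female 2.

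With the replicate number as a block, 1 *Kcn* gene was called, and 231 of all genes instead of 424. The numbers did not pair the rats, since the deviations of same-numbered rats correlated by −0.10 to 0.07 and number 3 was the only one whose male correlated best with its own female.

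The log2 difference of the ratio of *Kcnj16* to *Kcnj10* was −0.054 and ranged from −0.17 to 0.097 with each rat left out, positive without male 2, female 2 or female 3. That of *Kcnj10* to *Slc12a3* ranged from 0.15 to 0.32, the highest without male 4.

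Fold changes near 0 changed sign. With quantile normalization they were −0.053 for *Kcnj15*, 0.059 for *Kcnj2*, 0.082 for *Kcne3*, 0.015 for *Kcnk2*, 0.13 for *Kcnk6*, 0.073 for *Kcnj3*, 0.026 for *Kcnj14* and 0.14 for *Kcnq5*. For *Kcnj3* they were also 0.25 with limma-voom and 0.42 with a pseudocount of 0.01. With scaling by total reads they were −0.054 for *Kcnj15* and −0.043 for *Kcns3*. With each rat left out the ranges were −0.27 to 0.16 for *Kcnj15*, −0.35 to 0.064 for *Kcnj12*, −0.092 to 0.093 for *Kcnk1*, −0.17 to 0.027 for *Kcnk5*, −0.032 to 0.19 for *Kcns3*, −0.086 to 0.042 for *Kcnj2*, −0.43 to 0.088 for *Kcne5*, −0.19 to 0.24 for *Kcne3*, −0.053 to 0.30 for *Kcnma1*, −0.28 to 0.19 for *Kcnmb4*, −0.59 to 0.23 for *Kcnj3*, −0.22 to 0.036 for *Kcnj14* and −0.16 to 0.021 for *Kcnq5*. The other *Kcn* genes whose log2 fold change is given kept its direction and its side of the threshold under each alternative, save for *Kcnj16* and *Kcne1*, which crossed the threshold as stated. Genes outside the rule were run after the data were seen. With the replicate number as a block, *Stk39* and *Abcc8* had limma adjusted p of 0.0969 and 0.0864, and *Wnk1*, *Avpr2*, *Ptger3*, *Cubn* and *Atp6v0d2* also lost their calls. No fold change of these 7 genes, or of *Abcc9*, changed sign. Where a value changed, the cause was not tested beyond the rat or setting named. Of the 59 tested *Kcn* genes, 32 had under 50 reads in every rat, among them *Kcnk13*, *Kcne4* and *Kcnh2*.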
